A study of Mus musculus with 16 samples.

Results

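RNA carrying abasic sites was captured from hydrogen peroxide-treated Neuro 2a cells and set against the unselected RNA of the same treatment. Members were chosen by array title, 4 arrays titled Ox-ARP and 4 titled Ox-total, which are 8 of the 16 arrays of the study. Neuro 2a is a mouse neuroblastoma line, a tumour-derived line of neural crest character, so every value describes a single immortal line. The labels list its strain as C57BL/6J. The Ox-ARP group is RNA of peroxide-treated cells that was derivatized with ARP (aldehyde reactive probe, a biotin-bearing reagent) and then pulled down on streptavidin beads, and the Ox-total group is RNA of peroxide-treated cells hybridised without pull-down. Basal-ARP and Basal-total are the matching captured and unselected RNA of untreated cells, 4 arrays each, and serve here only to set the change on capture beside the one seen without peroxide. All 4 groups share the line, the TRIzol extraction and the bead array. The labels used here name neither a peroxide dose nor an exposure time, and nothing states that the replicates were separate cultures, so p-values measure the spread between these arrays, which may be technical.

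An abasic site is a sugar of the RNA chain that has lost its base. Oxidation of guanine and of other bases weakens the bond to the sugar, and base loss leaves an aldehyde that ARP can couple to, so a captured transcript is one that carried at least 1 such site, or one that stayed on the beads for another reason. No group held RNA pulled down without ARP, so binding of unlabelled RNA and abasic sites cannot be told apart. Messenger RNA is exposed to oxidants outside the nucleus and is not repaired by the excision pathways that remove damaged bases from DNA, which makes damaged transcripts a long-standing subject in neuronal cells.

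The 8 arrays were alike in depth. Mean signal was 441 ± 63.1 on Ox-ARP arrays and 461 ± 65.1 on Ox-total arrays (SD, n = 4 each), with 10632 to 10938 and 10351 to 10871 of 25697 probes detected. After normalization the 8 arrays correlated with each other at 0.971 to 0.995 across genes. The first principal component of these arrays held 52.0% of the variance and placed the Ox-ARP arrays between 10.7 and 17.6 and the Ox-total arrays between -19.3 and -11.8. Replicates 1 and 2 lay on one chip and replicates 3 and 4 on the other, and within a chip the position of an array and its group cannot be told apart. Of 23 neuroblastoma markers on the array, 18 were detected on all 8 arrays, among them genes of the noradrenergic program. Mycn, Nefl and Nefm were detected on 0. The summed linear level of these markers was 26858 to 28460 on Ox-ARP arrays and 24227 to 25062 on Ox-total arrays. Markers of other cell types were mostly undetected on these 8 arrays: 9 of 9 for macrophages and blood, 7 of 10 for stroma and vessel, 6 of 7 for glia and 7 of 9 for epithelium. Their summed levels overlapped between the groups, at 213 to 219 on Ox-ARP and 210 to 220 on Ox-total arrays for macrophages and blood, and at 314 to 342 on Ox-ARP and 326 to 328 on Ox-total arrays for stroma and vessel. The glial markers summed to 268 to 308 on Ox-ARP and 271 to 289 on Ox-total arrays, and the epithelial ones to 274 to 294 and 271 to 279.

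Values below are log2 normalized bead intensities, and a change is the Ox-ARP mean minus the Ox-total mean on that log2 scale ± limma's standard error, with 4 arrays in each group. Because quantile normalization gives each array the same distribution, a change is a shift in relative representation among transcripts and carries no information on how much RNA the beads held. Of 8072 features, which are 7464 named genes and 608 probes without a symbol, 2092 (25.9%) were called at an adjusted p under 0.05. Of these 1091 (13.5% of all features) were higher and 1001 (12.4%) lower in Ox-ARP. All 4 Ox-ARP values lay above all 4 Ox-total values for 1224 features (15.2%), of which 959 were also called higher, and below them for 1052 (13%), of which 872 were called lower. Most calls were small: the median size among called features was 0.46, and 58.4% lay under 0.5. The higher share of the calls, 52.2% here, depended on the scaling between arrays. It was 66.7% of 2444 calls with the authors' processed values, 57.9% of 1785 with median scaling, 46.2% of 2096 with cyclic loess and 31.3% of 505 without normalization between arrays. The number of calls was 1168 on chip 1 alone and 550 on chip 2 alone, with 43.6% and 39.5% of them higher in Ox-ARP.

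Among named genes whose groups did not overlap, the largest rise was that of Sox9, a transcription factor gene of neural crest and cartilage, which had 8.05, 7.80, 7.70 and 8.003 on the Ox-ARP arrays and 5.87, 5.77, 6.25 and 6.35 on the Ox-total arrays. All 4 Ox-ARP values lay above the Ox-total values, and the change was 1.83 ± 0.15 (adjusted p = 2.0e-07). Heatr3, a HEAT repeat gene, had 9.72, 9.64, 9.70 and 9.79 on the Ox-ARP arrays and 8.42, 8.31, 8.55 and 8.49 on the Ox-total arrays (1.27 ± 0.09, adjusted p = 2.5e-08). Its 4 Ox-ARP values stood apart from the 4 Ox-total values on this probe, while a dimmer second probe of Heatr3 gave -0.04 ± 0.11 and did not pass.

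Among the other genes with the largest rises, Smug1 encodes a uracil-DNA glycosylase, a DNA repair enzyme that itself creates abasic sites in DNA. It had 9.32, 9.30, 9.35 and 9.16 on the Ox-ARP arrays and 7.93, 8.07, 8.32 and 8.13 on the Ox-total arrays (1.17 ± 0.09, adjusted p = 1.4e-07). Mta2, a subunit of the NuRD chromatin-remodelling complex, had 9.38, 9.39, 9.30 and 9.31 on the Ox-ARP arrays and 8.18, 8.02, 8.31 and 8.29 on the Ox-total arrays (1.15 ± 0.09). Both genes were higher on every Ox-ARP array, and neither had a second passing probe. Tomm70a, an outer-membrane receptor for proteins entering mitochondria, had 9.65, 10.07, 9.78 and 10.03 on the Ox-ARP arrays and 8.68, 8.61, 8.82 and 8.94 on the Ox-total arrays (1.12 ± 0.13). Dync1li1, a light intermediate chain of the dynein motor, had 7.95, 8.01, 8.13 and 8.02 on the Ox-ARP arrays and 6.86, 6.85, 7.25 and 7.15 on the Ox-total arrays (1.001 ± 0.12).

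Cyp20a1, an orphan cytochrome P450 gene, changed by 1.24 ± 0.17, with its lowest Ox-total value on replicate 1. Ahcy, the enzyme that removes the by-product of methylation reactions, changed by 1.26 ± 0.20 and was detected on 4 Ox-ARP arrays and 1 Ox-total array. Zfp763, a zinc finger gene, changed by 1.20 ± 0.16 on its brightest probe and 0.56 on the other. Ehd1, an endocytic recycling gene (1.08 ± 0.20), the calcium channel gene Orai3 (1.04 ± 0.16) and Plp2 (1.001 ± 0.12) followed, all without overlap between the groups. Itgb1, the integrin beta-1 gene, had 0.99 ± 0.12 on its brightest probe and -0.64 ± 0.16 on the other, both called, so its direction rests on the probe.

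**Figure D1:**
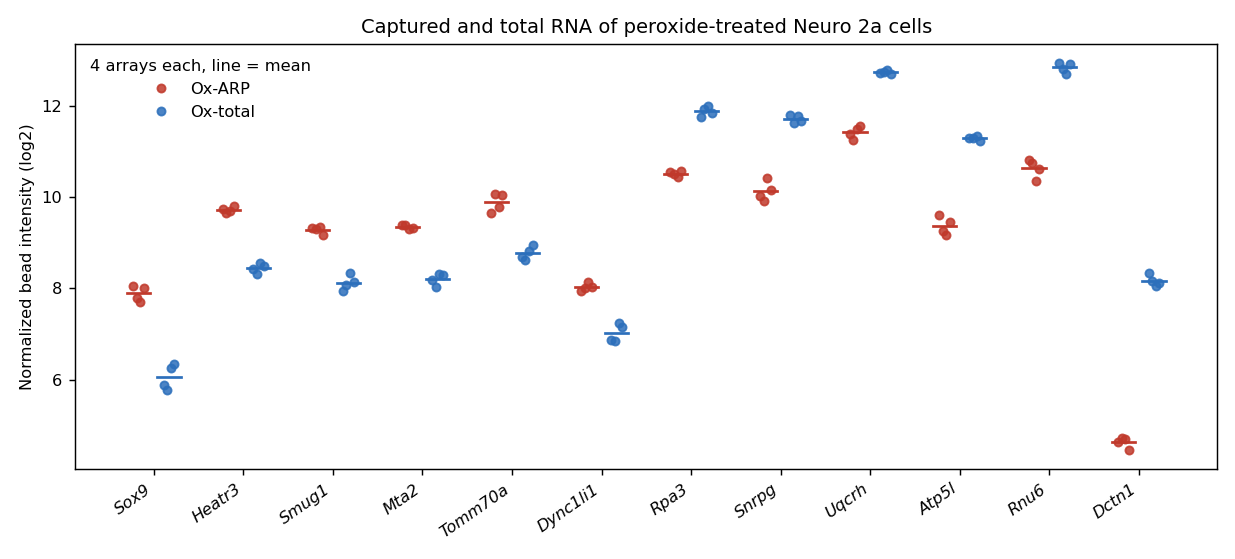
Log2 normalized bead intensity of 12 genes on the 4 Ox-ARP arrays (left of each pair) and the 4 Ox-total arrays (right), with a line at each mean. Sox9, Heatr3, Smug1, Mta2, Tomm70a and Dync1li1 lie higher in Ox-ARP, and Rpa3, Snrpg, Uqcrh, Atp5l, Rnu6 and Dctn1 lie lower, with no overlap in any pair. The Ox-ARP points of Dctn1 are below detection.

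Falls reached further than rises, with 84 called features lower and 15 higher by more than 1 on the log2 scale. Dctn1, which encodes the large subunit of dynactin, the cofactor that links dynein to its cargo, had 4.62, 4.71, 4.71 and 4.47 on the Ox-ARP arrays and 8.34, 8.16, 8.05 and 8.13 on the Ox-total arrays. It was detected on 4 Ox-total arrays and 0 Ox-ARP arrays, which puts it at least 6.30-fold lower after capture. Its adjusted p of 5.3e-14 by limma sets signal against values below detection and is a description. The gene has a single passing probe, so whether other parts of its transcript behave alike is not known from these arrays. Without peroxide the same probe was detected on 0 Basal-ARP and 4 Basal-total arrays.

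Rnu6, the U6 small nuclear RNA of the spliceosome, had 10.80, 10.74, 10.35 and 10.62 on the Ox-ARP arrays and 12.93, 12.80, 12.70 and 12.92 on the Ox-total arrays (-2.21 ± 0.11, adjusted p = 7.5e-10). All 4 Ox-ARP values lay below all 4 Ox-total values. U6 RNA normally carries no poly(A) tail, and how the amplification represents it was not tested. Xist, the long noncoding RNA of X inactivation, had 6.59, 6.94, 7.20 and 7.03 on the Ox-ARP arrays and 8.57, 8.88, 8.90 and 8.97 on the Ox-total arrays (-1.89 ± 0.30), with -0.84 on its other probe. Atp5l, subunit g of the ATP synthase, had 9.61, 9.26, 9.17 and 9.45 on the Ox-ARP arrays and 11.29, 11.29, 11.34 and 11.23 on the Ox-total arrays (-1.92 ± 0.10), and the SNARE gene Stx8 had -1.39 ± 0.11.

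Snrpg, the G protein of the Sm ring, had 10.03, 9.91, 10.42 and 10.15 on the Ox-ARP arrays and 11.79, 11.63, 11.77 and 11.67 on the Ox-total arrays (-1.58 ± 0.09). Papola, the main nuclear poly(A) polymerase gene, had 8.25, 7.98, 8.14 and 7.79 on the Ox-ARP arrays and 9.70, 8.96, 9.48 and 9.85 on the Ox-total arrays (-1.46 ± 0.19), with its lowest Ox-total value on replicate 2. Sec61b, the beta subunit of the ER translocon, had -1.41 ± 0.10 on its brightest probe and -1.48 on the other. The ubiquitin-like gene Ubl5 (-1.40 ± 0.11), the small membrane protein gene Smim26 (-1.40 ± 0.09, -1.39 on the other probe) and the protease inhibitor gene Wfdc12 (-1.60 ± 0.10) fell without overlap. Map1b, a microtubule-associated protein gene of growing axons, had 9.72, 10.04, 9.67 and 9.97 on the Ox-ARP arrays and 11.47, 10.53, 11.20 and 11.93 on the Ox-total arrays (-1.43 ± 0.27). Its 3 other probes gave -0.77, -0.47 and -0.40 and did not pass, and on chip 1 alone the change was -1.12 with an adjusted p of 0.0502.

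In all, 27 named genes were detected on all 4 arrays of one fraction and on 0 of the other, 17 only in captured RNA and 10 only in total RNA. Those seen only in captured RNA included Lrrn4cl (at least 1.74-fold higher), Ctcfl, the germline paralogue of the insulator protein CTCF (at least 1.47-fold higher), the lysosomal tethering gene Vps39 (at least 1.43-fold), the glycosyltransferase gene A4galt (at least 1.30-fold) and Hps5 (at least 1.14-fold). Those seen only in total RNA included Ccnk, the cyclin of the elongation kinase Cdk12 (at least 1.69-fold lower), the NuRD subunit gene Gatad2b (at least 1.53-fold lower), the linker histone gene H1f5 (at least 1.43-fold lower) and the deubiquitinase gene Usp9x (at least 1.27-fold lower). Mpp5, a cell polarity scaffold gene, was detected on 3 Ox-total arrays and 0 Ox-ARP arrays (at least 1.76-fold lower). These genes were chosen for this detection pattern, so their adjusted p-values, from 6.1e-09 for Ccnk to 0.0042 for Usp9x, are a description. The means of the detected side lay between 5.78 and 6.39, below the 8.17 of Dctn1.

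Gene groups are described next by counts and medians, for comparison with the median of 0.03 over all features and with the shares of 13.5% higher and 12.4% lower. Of 71 groups with 3 or more tested members, 35 had a median at least 0.1 away from the median of all features. Relative to all features, 0 of the 35 changed side on either chip alone. Under the 4 other scalings the tubulins alone changed side, with the authors' values, with median scaling and without normalization. With same-numbered arrays as blocks, 19.1% of all features were higher and 16.4% lower, and a group's blocked count is given where it differs from the unblocked one by more than 1.5 times.

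Genes of the mitochondrial respiratory chain, all encoded in the nucleus, were often lower in captured RNA. Of 33 tested subunits and assembly proteins of complex I, the NADH dehydrogenase, 20 fell and 1 rose (median -0.47, range -1.26 to 0.25). Ndufa2 had 10.89, 10.73, 10.85 and 10.92 on the Ox-ARP arrays and 12.09, 12.09, 12.12 and 12.12 on the Ox-total arrays (-1.26 ± 0.07, adjusted p = 5.6e-09), and its groups lay more than 1 apart. Ndufs4, a subunit whose loss causes a mitochondrial encephalopathy in mice, had 11.60, 11.41, 11.67 and 11.73 on the Ox-ARP arrays and 12.92, 12.81, 12.86 and 12.77 on the Ox-total arrays (-1.24 ± 0.08), and its 3 other probes ran from -0.94 to -0.55. Ndufc2 (-1.23 ± 0.09) and Ndufa5 (-1.14 ± 0.09) were alike. The count of complex I subunits that fell stayed between 19 and 20 on leaving out any 1 of the 8 arrays and was 14 on chip 2 alone.

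In complex III, the cytochrome bc1 complex, 4 of 7 tested genes fell and 2 rose (median -0.69). The hinge protein gene Uqcrh had 11.39, 11.24, 11.49 and 11.56 on the Ox-ARP arrays and 12.72, 12.74, 12.77 and 12.69 on the Ox-total arrays (-1.31 ± 0.08), and Uqcr11 had -1.20 ± 0.10. Against these, Cyc1, which encodes cytochrome c1, had 12.49, 12.46, 12.12 and 12.25 on the Ox-ARP arrays and 11.99, 12.004, 11.87 and 11.73 on the Ox-total arrays (0.43 ± 0.10), and the core protein gene Uqcrc2 had 0.30 ± 0.07, a rise that did not pass on either chip alone (0.22 and 0.38) or with cyclic loess (0.19), median scaling (0.18) or no normalization (0.14). Complex IV, the cytochrome c oxidase, had 8 of 13 lower and 0 higher (median -0.45), led by Cox7a2 (-1.24 ± 0.13) and Cox7c (-1.02 ± 0.10). Of the 3 tested genes of complex II, the succinate dehydrogenase, Sdhc fell (-0.32 ± 0.08) and the others did not pass. The call of Sdhc was lost on either chip alone (-0.25 and -0.40) and without normalization (-0.40). Of 15 ATP synthase genes 6 fell and 1 rose (median -0.21): beside Atp5l, Atp5o had -0.76 ± 0.10 and Atp5j2 -0.61 ± 0.08, while Atp5a1, the alpha subunit of its catalytic head, had 11.09, 11.82, 11.64 and 11.998 on the Ox-ARP arrays and 10.29, 10.79, 10.77 and 11.07 on the Ox-total arrays (0.91 ± 0.19).

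Ribosomal protein genes had more falls than rises in both compartments. The large subunit of the mitochondrial ribosome had 23 of 43 genes lower and 3 higher (median -0.37), and its small subunit 10 of 28 lower and 1 higher (median -0.22), with 5 and 2 higher under the block. Mrpl33 had 11.37, 10.93, 10.94 and 11.24 on the Ox-ARP arrays and 12.37, 12.46, 12.55 and 12.36 on the Ox-total arrays (-1.32 ± 0.11), and its other probe gave -1.20. Mrpl53 (-1.18 ± 0.13), Mrps18c (-1.08 ± 0.12) and Mrps11 (-1.05 ± 0.10) were also lower on all Ox-ARP arrays. Mrpl9 (0.58 ± 0.10) and Mrps6 (0.49 ± 0.09) went the other way, without overlap between the groups.

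In the cytosolic ribosome 14 of 35 large-subunit genes fell and 2 rose (median -0.23), and 9 of 22 small-subunit genes fell and 0 rose (median -0.22), 1 rising under the block. Rps27 had 12.63, 12.34, 12.26 and 12.68 on the Ox-ARP arrays and 13.44, 13.43, 13.68 and 13.61 on the Ox-total arrays (-1.06 ± 0.12). Rps7 (-0.91 ± 0.10), Rpl39 (-0.83 ± 0.10) and Rpl27 (-0.79 ± 0.09) fell as well, and Rpl22 had 11.77, 11.80, 11.64 and 11.54 on the Ox-ARP arrays and 10.92, 10.75, 10.64 and 10.81 on the Ox-total arrays (0.91 ± 0.11). The number of large-subunit genes that fell was 9 without Ox-ARP replicate 2, without Ox-total replicate 1 or without Ox-total replicate 3. These genes have processed copies across the genome, and signal of near-identical transcripts on 1 probe cannot be told apart.

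**Figure D2:**
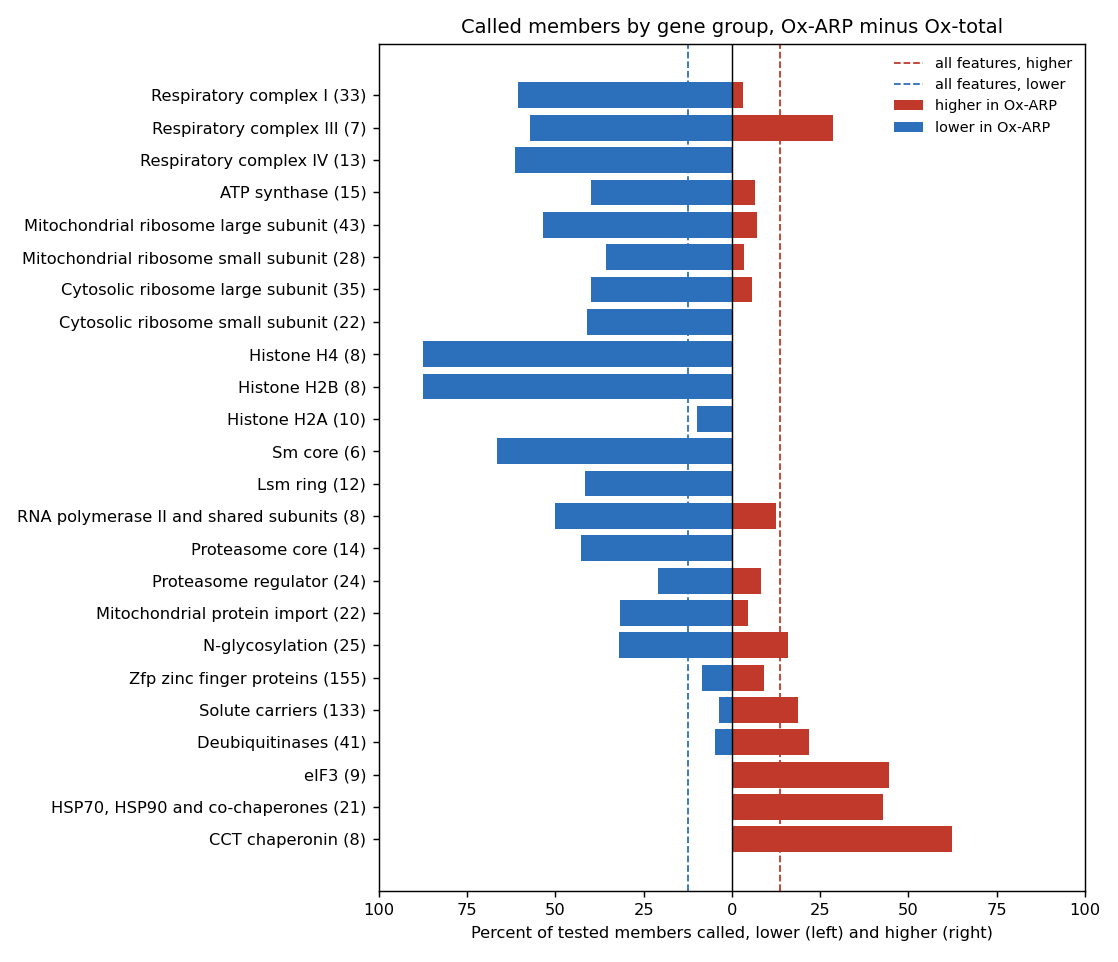
Percent of the tested members of 24 gene groups called lower (bars to the left) and higher (bars to the right) in Ox-ARP, with the number tested in parentheses and dashed lines at the 12.4% and 13.5% of all 8072 features. Histone H4 and H2B, respiratory complexes, ribosomes and the Sm core extend to the left, and CCT, heat shock chaperones and eIF3 to the right.

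Histone families differed in the count of members called, while the medians of H2A, H2B and H3 were close (-0.48, -0.53 and -0.56). Whether the families differ was not tested. Of 8 tested H4 genes 7 fell and 0 rose (median -0.89), and this count was 7 on leaving out any 1 array. H4c6 had 6.67, 6.48, 6.91 and 6.997 on the Ox-ARP arrays and 7.96, 7.79, 7.96 and 7.98 on the Ox-total arrays (-1.16 ± 0.12), and H4c12 had 6.33, 5.84, 5.97 and 6.31 on the Ox-ARP arrays and 7.05, 7.11, 7.37 and 7.31 on the Ox-total arrays (-1.10 ± 0.13). H2B had 7 of 8 lower (median -0.53), with H2bc7 at -0.66 ± 0.10, but 0 of 8 on chip 2 alone, where the median was -0.37. H2A had 1 of 10 lower, H2ac8 (-0.62 ± 0.15), with a median of -0.48; 5 passed without Ox-ARP replicate 3 and 2 without Ox-total replicate 2. Of 6 H3 genes 4 fell, such as H3c6 (-0.93 ± 0.14), and H3c13 had 0.40 ± 0.12. The call of H3c13 was lost without Ox-ARP replicate 3 (0.36), Ox-ARP replicate 4 (0.33) or Ox-total replicate 2 (0.35). These replication-dependent messages end in a stem-loop in place of a poly(A) tail, and the copies of a family are nearly identical, so single copies are uncertain.

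Histone genes that are expressed outside S phase and are polyadenylated were divided. H3f3b had 13.78, 13.94, 13.98 and 14.06 on the Ox-ARP arrays and 13.50, 13.44, 13.51 and 13.46 on the Ox-total arrays (0.46 ± 0.09), while H3f3a, which encodes the same H3.3 protein, had 11.87, 11.74, 11.61 and 11.79 on the Ox-ARP arrays and 12.19, 12.24, 12.30 and 12.18 on the Ox-total arrays (-0.48 ± 0.08, -0.79 on its other probe). The rise of H3f3b did not pass with median scaling (0.25), without normalization (0.21) or on chip 1 alone (0.39). H2az1, the H2A.Z gene, had -0.59 ± 0.11. The median over 7 such genes was -0.08.

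Genes of the core RNA-binding rings of the spliceosome fell in part. Of 6 Sm core genes 4 fell and 0 rose (median -0.68): beside Snrpg, Snrpd2 had 11.98, 11.59, 11.66 and 11.79 on the Ox-ARP arrays and 13.06, 13.04, 12.81 and 12.77 on the Ox-total arrays (-1.16 ± 0.14), Snrpd1 -0.90 ± 0.12 and Snrpn -0.47 ± 0.08. The Lsm proteins form the related ring that binds the end of U6 RNA or starts mRNA decay. Of 12 tested genes 5 fell and 0 rose (median -0.30), 1 rising under the block, with Lsm7 at -1.07 ± 0.12 and Lsm3 at -1.004 ± 0.11. The Lsm median depended on the choice of probe: with a gene's probes averaged it was -0.08, with 4 lower and 1 higher. The small nucleolar RNA Snora65 had -0.56 ± 0.09. Other splicing proteins had smaller medians: 5 of 26 SF3 and PRP genes fell and 2 rose (median -0.06), and 1 of 26 hnRNP and SR genes fell and 3 rose (median 0.15). Under the replicate block 5 SF3 and PRP genes rose, and 8 of the 26 hnRNP and SR genes rose and 2 fell.

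Subunits of RNA polymerase II split by gene, with 4 of 8 lower and 1 higher (median -0.33). Polr2i had 8.77, 8.47, 8.64 and 8.54 on the Ox-ARP arrays and 9.76, 9.62, 9.39 and 9.47 on the Ox-total arrays (-0.96 ± 0.13), and Polr2e had 10.25, 9.97, 10.23 and 10.12 on the Ox-ARP arrays and 9.61, 9.57, 9.45 and 9.40 on the Ox-total arrays (0.64 ± 0.09, 0.66 on its other probe). Of 25 Mediator genes 6 fell and 2 rose, with Med11 at -0.83 ± 0.09 on one probe and -0.80 on the other. Among 22 NuRD and SWI/SNF genes 6 rose and 2 fell (median 0.11): beside Mta2, the deacetylase gene Hdac2 had 13.12, 13.29, 13.27 and 13.16 on the Ox-ARP arrays and 12.71, 12.71, 12.75 and 12.80 on the Ox-total arrays (0.47 ± 0.08), and Smarcd1, detected on 3 Ox-total arrays and 0 Ox-ARP arrays, was at least 1.34-fold lower.

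The 20S core and the regulatory particles of the proteasome differed in counts. Of 14 core genes 6 fell and 0 rose (median -0.32), among them Psmb10, an inducible catalytic subunit, with 9.62, 9.40, 9.38 and 9.45 on the Ox-ARP arrays and 10.42, 10.43, 10.45 and 10.26 on the Ox-total arrays (-0.93 ± 0.10, -0.72 on its other probe), and Psmb1 (-0.53 ± 0.09). Of 24 regulator genes 5 fell and 2 rose (median 0.03). The assembly chaperone gene Psmd5 had 6.95, 6.71, 6.74 and 6.57 on the Ox-ARP arrays and 8.30, 7.70, 8.01 and 7.61 on the Ox-total arrays (-1.17 ± 0.13), and the activator gene Psme2 had -0.82 ± 0.11. Whether the core and the regulator differ was not tested. Nedd8, the ubiquitin-like modifier of cullins, had -0.92 ± 0.15, and 9 of 41 deubiquitinase genes rose, 14 under the block, and 2 fell.

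Protein import and glycosylation machines held both falls and rises. In mitochondrial import 7 of 22 genes fell and 1, Tomm70a, rose (median -0.16), with 2 rising under the block. The intermembrane chaperone gene Timm8b had 9.91, 9.98, 9.72 and 10.10 on the Ox-ARP arrays and 11.16, 11.30, 11.24 and 11.30 on the Ox-total arrays (-1.32 ± 0.11, -1.81 on its other probe), and the small translocase subunit gene Tomm7 had -1.09 ± 0.10. In N-glycosylation 8 of 25 fell and 4 rose (median -0.19). The small oligosaccharyltransferase subunit gene Ost4 had 10.32, 9.89, 10.22 and 10.16 on the Ox-ARP arrays and 11.58, 11.42, 11.43 and 11.43 on the Ox-total arrays (-1.32 ± 0.12), while Stt3b, the catalytic subunit of the same enzyme, had 12.61, 12.65, 12.53 and 12.56 on the Ox-ARP arrays and 11.99, 11.96, 11.82 and 11.96 on the Ox-total arrays (0.66 ± 0.08) and the mannosyltransferase gene Alg9 had 0.55 ± 0.10. The count of falls in N-glycosylation was 4 without Ox-total replicate 2 and 5 without Ox-ARP replicate 2, Ox-ARP replicate 4 or Ox-total replicate 1. Of 20 genes of the ER translocon and signal processing 4 fell, led by Sec61b, and 4 rose.

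**Figure D3:**
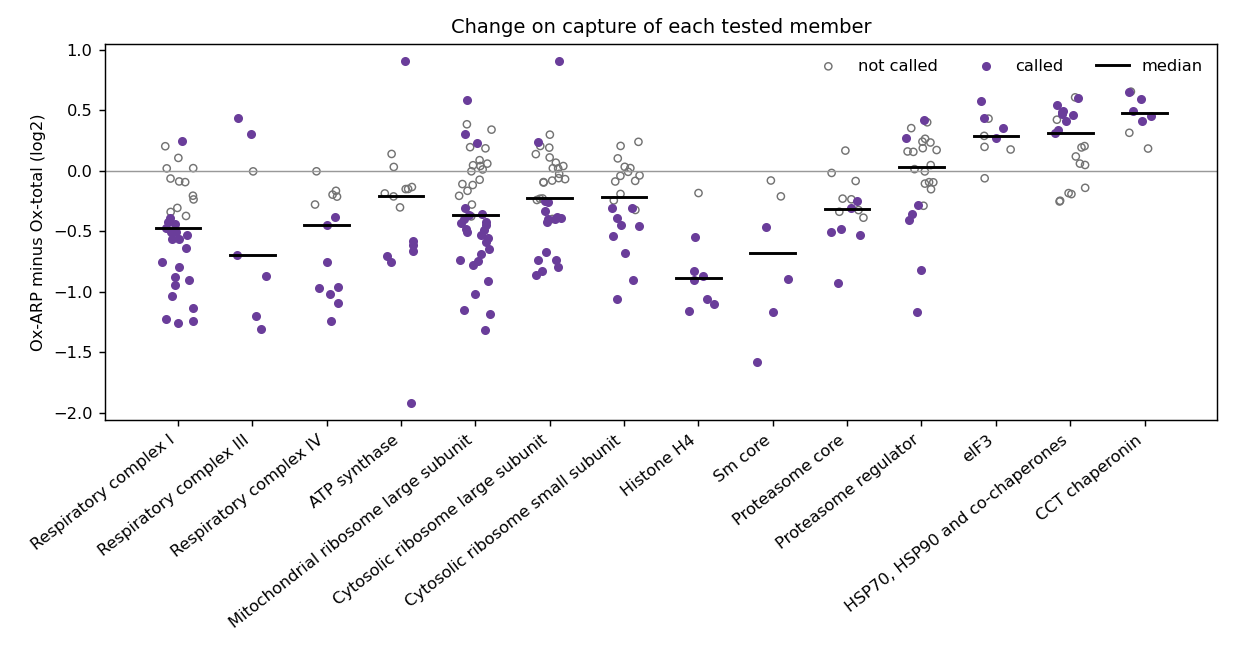
Change on capture (Ox-ARP minus Ox-total, log2) of each tested member of 14 gene groups, with filled points for called genes, open points for the rest and a bar at the median. Medians run from -0.89 for histone H4 to 0.48 for CCT, and complex III, ATP synthase and the large ribosomal subunits each hold called members on both sides of 0.

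The CCT and heat shock chaperones were among the groups with the largest shares of members that rose. CCT, the ring that folds actin and tubulin, had 5 of 8 genes higher and 0 lower (median 0.48). Cct6a had 13.53, 13.86, 13.67 and 13.59 on the Ox-ARP arrays and 13.01, 13.09, 13.03 and 13.14 on the Ox-total arrays (0.59 ± 0.08), Cct2 had 7.93, 8.05, 8.05 and 8.27 on the Ox-ARP arrays and 7.27, 7.35, 7.43 and 7.67 on the Ox-total arrays (0.65 ± 0.15) and Cct3 0.41 ± 0.08, with 0.22 on a second probe of Cct3. Of 21 genes listed as HSP70, HSP90 and co-chaperones 9 rose and 0 fell, 1 under the block (median 0.31): the HSP90 adaptor gene Stip1 had 12.36, 12.59, 12.10 and 12.30 on the Ox-ARP arrays and 11.81, 11.92, 11.82 and 11.90 on the Ox-total arrays (0.47 ± 0.11) and the immunophilin gene Fkbp4 0.49 ± 0.11. The list also held Hspd1, a mitochondrial chaperonin gene outside these families, which is counted among the 9. Hspd1 had 0.49 ± 0.12, with 0.03 on a second probe, and did not pass with cyclic loess (0.31). These counts depended on the scaling, since 0 of the 8 CCT genes and 0 of the 21 heat shock genes passed without normalization between arrays, where the medians were 0.31 and 0.15, and 3 and 4 passed with median scaling. On chip 2 alone 2 and 0 passed. The J-domain co-chaperones, which hand clients to HSP70, had 4 of 26 higher, 7 under the block, and 4 lower (median -0.03).

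Translation factors rose in part. Of 9 tested genes of eIF3, the scaffold that joins the small ribosomal subunit to mRNA, 4 rose and 0 fell (median 0.29). Eif3f had 13.83, 13.76, 13.90 and 13.83 on the Ox-ARP arrays and 13.35, 13.28, 13.59 and 13.35 on the Ox-total arrays (0.43 ± 0.08) and Eif3l 0.35 ± 0.08. With median scaling neither passed (0.23 for Eif3f and 0.14 for Eif3l), and Eif3l also did not pass with cyclic loess (0.16), with the authors' values (0.17) or on either chip alone (0.37 and 0.33). Without normalization 0 of the 9 passed, and 1 passed with median scaling. Eif3b had 0.58 ± 0.10 on its brightest probe and -0.82 ± 0.22 on a dimmer one, both called, and the mean of its probes was -0.12. Among other factors Etf1, the termination factor, had 11.86, 12.07, 12.05 and 11.96 on the Ox-ARP arrays and 11.31, 11.55, 11.57 and 11.48 on the Ox-total arrays (0.51 ± 0.10). Cytosolic aminoacyl-tRNA synthetases had 4 of 20 higher and 3 lower, with Mars1 at 0.68 ± 0.09 and Farsa at -0.62 ± 0.12.

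Base excision genes encode enzymes that make or process abasic sites in DNA, the DNA counterpart of the site that ARP marks in RNA. Of 20 tested base excision and nucleotide pool genes 4 rose (median 0.00, 13.5% of all features higher). The 1 called lower, Tdp1, was detected on 0 arrays of either group, so no change is given for it; under the block 2 were called lower. Beside Smug1, Parp1, the sensor of DNA breaks, had 12.06, 12.29, 12.004 and 12.12 on the Ox-ARP arrays and 11.26, 11.51, 11.30 and 11.11 on the Ox-total arrays (0.82 ± 0.09), with 0.79 and 0.56 on its other probes. Tdg, a thymine glycosylase gene, had 0.43 ± 0.10.

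In DNA replication the 3 subunits of RPA, the single-strand binding complex, differed in direction. Rpa3, the smallest, had 10.54, 10.50, 10.43 and 10.57 on the Ox-ARP arrays and 11.76, 11.92, 11.98 and 11.85 on the Ox-total arrays (-1.37 ± 0.09, adjusted p = 1.2e-08), whereas Rpa1, the largest, had 12.16, 12.26, 12.17 and 12.11 on the Ox-ARP arrays and 11.84, 11.82, 11.92 and 11.78 on the Ox-total arrays (0.33 ± 0.07) and Rpa2 did not pass (-0.03). The helicase gene Mcm7 had -0.54 ± 0.14. Over 13 MCM, GINS and RPA genes 2 fell and 1 rose, 2 under the block (median 0.02).

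Dynein and dynactin genes had 5 of 19 higher and 2 lower (median 0.20), and 3 higher without Ox-ARP replicate 3. Dctn1 and the light chain gene Dynlrb1 (-0.76 ± 0.08) were the 2 that fell, and Dync1li1 had the largest rise. Tubulins had 1 of 11 higher, 3 under the block, and 0 lower, a median of 0.17.

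Transport and metabolic groups differed in their counts. Vacuolar ATPase genes had 1 of 17 higher and 4 lower, cholesterol synthesis 1 of 15 higher and 2 lower, and iron and heme genes 1 of 17 higher and 1 lower. Under the block each of these had 2 higher, and iron and heme genes had 3 lower. Of 133 solute carriers 25 rose and 5 fell, 9 under the block (median 0.11), and 2 rose on chip 2 alone. The nucleoside transporter gene Slc29a1 had 10.21, 10.03, 10.01 and 10.15 on the Ox-ARP arrays and 9.60, 9.62, 9.51 and 9.38 on the Ox-total arrays (0.57 ± 0.09), and Slc11a1, a metal ion transporter gene best known from macrophages, had 9.61, 9.80, 9.80 and 10.05 on the Ox-ARP arrays and 10.77, 10.90, 11.17 and 11.18 on the Ox-total arrays (-1.19 ± 0.15); macrophage markers were at 0 of 9 detected. Of 15 serine, one-carbon and methyl cycle genes 6 rose and 1 fell (median 0.20), with Shmt1 at 0.62 ± 0.13 beside Ahcy. Of 14 glycolytic genes 3 rose, 5 under the block, and 0 fell (median 0.11). Pkm had 13.35, 13.37, 13.02 and 13.21 on the Ox-ARP arrays and 12.38, 12.57, 12.42 and 12.46 on the Ox-total arrays (0.78 ± 0.12), and Pfkm had 0.52 ± 0.09 on its brightest probe, 0.46 on a second and -0.38 on the last, all called.

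Genes that answer oxidative stress showed no common direction. Of 21 antioxidant enzyme genes 3 fell, 8 under the block, and 1 rose (median -0.20). The glutathione peroxidase genes Gpx1 and Gpx4, which remove peroxides, both fell. Gpx1 had 10.996, 10.55, 10.998 and 10.99 on the Ox-ARP arrays and 11.84, 11.68, 11.61 and 11.37 on the Ox-total arrays (-0.74 ± 0.13), and Gpx4 had 10.33, 9.999, 9.82 and 10.14 on the Ox-ARP arrays and 10.81, 10.85, 10.60 and 10.69 on the Ox-total arrays (-0.67 ± 0.15). Sod2, the mitochondrial superoxide dismutase, had -0.29 ± 0.09, a call lost without Ox-ARP replicate 4 (-0.28) or Ox-total replicate 3 (-0.26). Of 17 NRF2 targets 5 rose and 3 fell (median 0.12): the autophagy receptor gene Sqstm1 had 12.11, 11.83, 11.61 and 11.87 on the Ox-ARP arrays and 11.37, 11.25, 10.92 and 10.97 on the Ox-total arrays (0.73 ± 0.13), the malic enzyme gene Me1 0.65 ± 0.14, the cystine transporter gene Slc7a11 0.50 ± 0.13 and the glutathione transferase gene Gstm5 -0.71 ± 0.11. Hmox1 had 0.00 ± 0.10 (adjusted p = 0.99) and Srxn1 0.16 ± 0.12 (adjusted p = 0.36), which did not pass.

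Of 18 p53 targets 4 rose and 2 fell (median 0.14). The nucleotide excision gene Xpc had 8.16, 8.02, 7.87 and 7.94 on the Ox-ARP arrays and 7.35, 7.53, 7.24 and 7.39 on the Ox-total arrays (0.62 ± 0.10), Aen, detected on 4 Ox-ARP arrays and 0 Ox-total arrays, was at least 1.22-fold higher, Ddb2 had -0.45 ± 0.10 and Gadd45a -0.43 ± 0.10. Cdkn1a, the p21 gene, had -0.06 ± 0.12 (adjusted p = 0.78). In the integrated and ER stress group 5 of 20 rose and 2 fell (median 0.17). The ER chaperone gene Hspa5 had 7.59, 7.57, 7.63 and 8.27 on the Ox-ARP arrays and 6.71, 6.90, 7.29 and 7.26 on the Ox-total arrays (0.73 ± 0.20) and the disulfide isomerase genes Pdia3 and Pdia4 had 0.47 ± 0.09 and 0.43 ± 0.09, while Ddit3, the CHOP gene, had 10.32, 9.67, 9.94 and 9.83 on the Ox-ARP arrays and 10.99, 10.74, 10.36 and 10.34 on the Ox-total arrays (-0.67 ± 0.16). Mcl1, a survival gene of the BCL2 family, had 0.47 ± 0.11. Immediate early genes had 3 of 17 lower, 5 under the block, and 0 higher (median -0.20), 1 lower without Ox-ARP replicate 4, with the phosphatase gene Dusp1 at 8.95, 8.97, 9.19 and 9.09 on the Ox-ARP arrays and 9.40, 9.57, 9.71 and 9.60 on the Ox-total arrays (-0.52 ± 0.09). Fos had -0.28 ± 0.13 (adjusted p = 0.12) and passed without Ox-ARP replicate 2 (-0.41) or without Ox-total replicate 1 (-0.38).

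Genes linked to neurodegeneration were divided too, with 7 of 33 higher and 5 lower, 9 under the block (median -0.02). Psenen, a gamma-secretase subunit gene, had 10.29, 10.33, 10.59 and 10.66 on the Ox-ARP arrays and 11.17, 11.32, 11.39 and 11.30 on the Ox-total arrays (-0.83 ± 0.09), and Bace2, a beta-secretase homologue, had 11.47, 11.51, 11.59 and 11.58 on the Ox-ARP arrays and 11.02, 11.06, 10.90 and 11.05 on the Ox-total arrays (0.53 ± 0.08). The unfoldase gene Vcp had 0.51 ± 0.09 and the huntingtin gene Htt 0.66 ± 0.15. Atxn3, the ataxin-3 gene, had 0.78 ± 0.08 and 0.76 on 2 probes and -0.65 on the last, all called. In synaptic vesicle fusion 6 of 38 rose, 10 under the block, and 5 fell (median 0.08), with Vamp4 at 0.56 ± 0.09 and Vamp8 at -1.08 ± 0.18, beside Stx8. Neuroblastoma identity genes had 4 of 19 higher under the block and 2 without it, the axon growth gene Gap43 (0.41 ± 0.09) and the receptor gene Ret (0.48 ± 0.13), and 2 lower, the dopa decarboxylase gene Ddc (-0.46 ± 0.10) and the noradrenaline-synthesis gene Dbh (-0.34 ± 0.11). The call of Dbh was lost without Ox-ARP replicate 2 (-0.26), Ox-ARP replicate 4 (-0.33), Ox-total replicate 1 (-0.32), Ox-total replicate 2 (-0.29) or Ox-total replicate 3 (-0.34).

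The usual reference genes did not pass. Gapdh had 14.05, 13.99, 13.96 and 13.92 on the Ox-ARP arrays and 13.90, 13.86, 13.67 and 13.68 on the Ox-total arrays (0.21 ± 0.08, adjusted p = 0.078), Actb 0.02 ± 0.08 (adjusted p = 0.89), Hprt -0.17 ± 0.11 (adjusted p = 0.25) and Tbp -0.19 ± 0.10 (adjusted p = 0.16). With same-numbered arrays as blocks, Gapdh and Tbp passed at the same changes. With median scaling the calls of Hspd1 (0.29), Rpa1 (0.27), Hdac2 (0.29), H3c13 (0.26), Sod2 (-0.34), Gadd45a (-0.35), Gap43 (0.38) and Dbh (-0.29) ended. When a gene's probes were averaged, those of Itgb1 (0.17), Pfkm (0.20), Hspd1 (0.26), Lypla1 (-0.18) and Slc38a2 (-0.18) did.

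**Figure D4:**
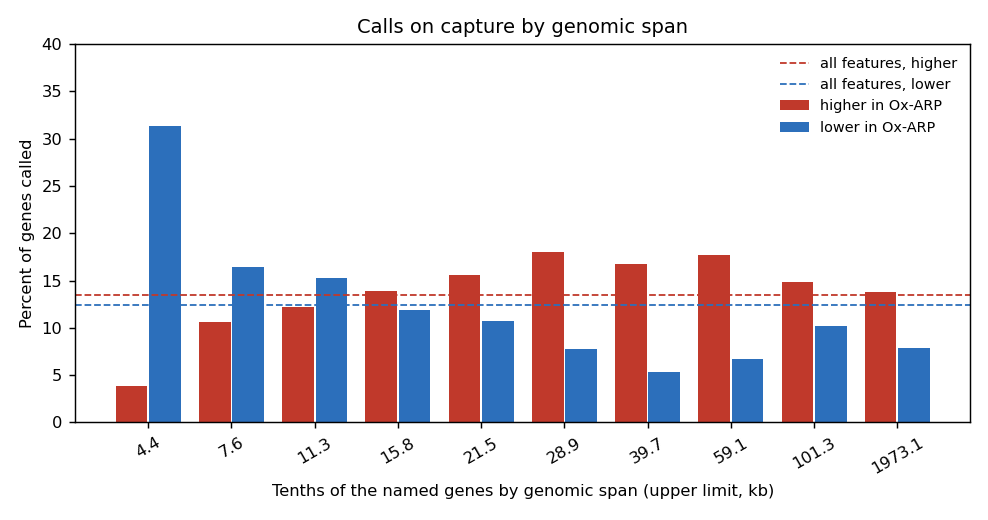
Percent of genes called higher (left bar) and lower (right bar) in Ox-ARP, for deciles of 7462 named genes ordered by genomic span, with the upper limit of each decile in kb. In the shortest decile 3.88% were higher and 31.3% lower, and in the seventh decile 16.8% were higher and 5.36% lower; the dashed lines mark the 13.5% and 12.4% of all features.

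Short genes accounted for an uneven part of the falls. Genomic span, the distance from the first to the last base of a gene with its introns, was known for 7462 genes. In the decile with the shortest span, 0.107 to 4.36 kb, 31.3% fell and 3.88% rose (median -0.16). In the seventh decile, 28.9 to 39.7 kb, 5.36% fell and 16.8% rose (median 0.09), and in the longest, from 101.3 kb, 7.90% fell and 13.8% rose (median 0.01), so the relation was not monotonic. Leaving out respiratory, ribosomal, histone, Sm, Lsm, proteasome and small RNA genes, the shortest decile still had 27.2% lower and 4.21% higher. Spearman's rho of span with the change was 0.162 across these genes, which are not independent replicates, 0.126 without those families, 0.1703 on chip 1 and 0.139 on chip 2. Without peroxide it was 0.242. Span is not transcript length, which was not available here, and short genes were also brighter (rho of span with the Ox-total level -0.141). The rho of the Ox-total level with the change was -0.040. It cannot decide whether brightness goes with direction, because the Ox-total level is also subtracted in the change. By deciles of brightness the median change was 0.008 in the dimmest and 0.071 in the brightest. In the brightest decile 21.8% were higher and 17.2% lower, the largest share of the deciles on either side. Whether brightness accounts for the relation with span was not tested.

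Different probes of 1 gene did not always move together. Of 367 genes with at least 2 called probes, 314 had all of them in 1 direction and 53 (14.4%) had probes called in opposite directions. Vps41 had -1.78 and 0.69, and Lsm12 ran from -0.75 to 1.15 over 4 probes. Dctn2 and Tubb2b also held called probes of both signs. Which part of the transcript each probe reads was not examined here.

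The change on capture was then set beside the change without peroxide, which rests on 8 other arrays. Of 8072 features 2619 (32.4%) were called in Basal-ARP against Basal-total, 16.4% higher and 16.1% lower. The features called in both numbered 1226, which is 58.6% of the Ox calls and 46.8% of the Basal calls, and 1200 of them had the same sign. Pearson's r between both changes was 0.681 across features, which share the probes' own properties. Sox9 had 1.86 ± 0.15 without peroxide beside 1.83 ± 0.15 with it, Atp5l -1.45 ± 0.10 beside -1.92 ± 0.10 and Rpa3 -0.96 ± 0.09 beside -1.37 ± 0.09.

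In several groups the medians were close with and without peroxide: complex I had -0.47 with and -0.48 without, the large mitochondrial ribosomal subunit -0.37 and -0.43, the Sm core -0.68 and -0.71, and CCT 0.48 and 0.35. Others were further apart: N-glycosylation had -0.19 with and 0.01 without, and immediate early genes -0.20 and 0.03. Whether group medians differ was not tested. Histones were uneven too. H2A had 1 of 10 genes lower with peroxide (median -0.48) and 10 of 10 without (median -0.86), H2B had 7 of 8 with (median -0.53) and 1 of 8 without (median -0.08), and H4 had 7 of 8 with (median -0.89) and 8 of 8 without (median -0.59). H3 had 4 of 6 lower with (median -0.56) and 3 of 6 without (median -0.21). The test of the difference called 0 genes in each of these 4 histone families.

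The difference between both changes passed for 126 features (1.56%), 56 higher and 70 lower with peroxide, so 44.4% were higher. With same-numbered arrays as blocks it passed for 684. The higher share was 80.9% of 162 with median scaling, 69.7% of 218 with the authors' values and 60% of 5 without normalization. The count was 3 on chip 1 alone and 0 on chip 2 alone by limma's adjusted p, where 990 and 883 features passed an unadjusted p of 0.05. Both chips together gave 1438. It fell to 56 without Ox-total replicate 3, 60 without Basal-total replicate 1, 68 without Ox-ARP replicate 4, 70 without Basal-total replicate 4, 72 without Basal-ARP replicate 2, 76 without Ox-ARP replicate 2 and 79 without Ox-total replicate 1. Of the 126, 31 were called only with peroxide, 58 only without, and 26 in both with opposite signs.

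Rab1a, a GTPase gene of ER-to-Golgi transport, had the largest difference among genes detected in all groups. It had 7.74, 7.77, 7.96 and 7.21 on the Ox-ARP arrays and 9.07, 9.09, 9.11 and 8.92 on the Ox-total arrays (-1.38 ± 0.13) with peroxide and 0.39 ± 0.13 without, a difference of -1.77 ± 0.19 (adjusted p = 0.00022). Prf1, the perforin gene, had 7.95, 7.81, 7.75 and 7.92 on the Ox-ARP arrays and 9.53, 9.14, 9.11 and 9.24 on the Ox-total arrays (-1.40 ± 0.11) with peroxide and -0.04 ± 0.11 without (difference -1.35 ± 0.16). Macrophage and blood markers were at 0 of 9 detected, and what the Prf1 probe reads in these cells was not tested. Lypla1, a depalmitoylating enzyme gene, had -0.90 ± 0.12 with and 0.39 ± 0.12 without on its brightest probe, and 0.54 ± 0.23 with peroxide on the other. The SNARE gene Sec22a (-0.82 ± 0.11 with, 0.14 ± 0.11 without), Psmd5 (-1.17 ± 0.13 and -0.14 ± 0.13), Mcm7 (-0.54 ± 0.14 and 0.43 ± 0.14) and Rnu6 (-2.21 ± 0.11 and -1.43 ± 0.11) were lower with peroxide than without. The amino acid transporter gene Slc38a2 had -0.63 ± 0.11 with and 0.23 ± 0.11 without on its brightest probe, and 0.26 with peroxide on the other. Bco1, a carotenoid oxygenase gene detected on 0 Basal-ARP arrays, had 0.50 ± 0.13 with peroxide. Its change without peroxide is a bound only, so its difference is a description. That difference was 1.10 as measured and 0.64 to 1.93 under the alternatives. Higher with peroxide than without were Metrn, the meteorin gene, (0.16 ± 0.12 with, -0.87 ± 0.12 without) and Cuedc1 (-0.04 ± 0.09 and -0.93 ± 0.09).

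Mid1 and Ccdc144b are among the 126, but both probes were detected on 0 of the 8 peroxide arrays and were kept through the 4 Basal-ARP arrays alone, so their difference is not given. The RNA-binding protein gene Mex3c had -0.04 ± 0.10 with and 0.79 ± 0.10 without. The differences of Rab1a, Prf1, Lypla1, Sec22a, Psmd5, Mcm7, Rnu6, Slc38a2, Metrn, Cuedc1 and Mex3c passed on leaving out each of the 16 arrays in turn. Those of Atp5o, Atxn3 and Fos were lost on leaving out 9, 13 and 13 of them. On chip 2 alone and without normalization none of these differences passed, and on chip 1 alone only that of Rab1a did. When probes were averaged, Lypla1 had -0.60 (adjusted p = 0.076) and Slc38a2 -0.35 (adjusted p = 0.34), and Slc38a2 did not pass with median scaling (-0.76, adjusted p = 0.10).

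**Figure D5:**
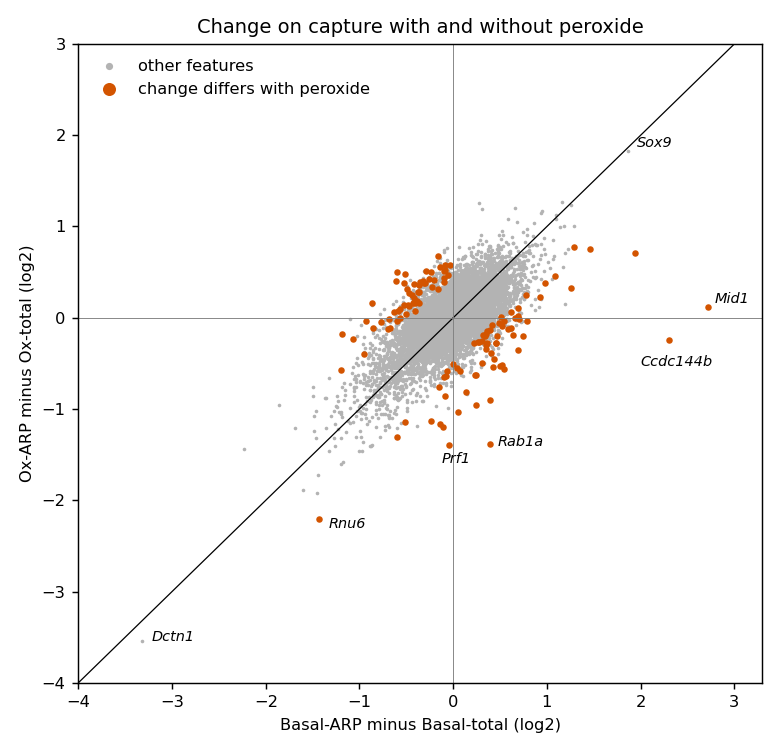
Change on capture of each feature without peroxide (horizontal, Basal-ARP minus Basal-total, log2) and with it (vertical, Ox-ARP minus Ox-total, log2), with the line of equal change. Orange points are the 126 features whose change differed with peroxide. Rab1a and Prf1 lie below the line and Sox9 lies on it. Dctn1 lies on it too, but was undetected in both captured groups. Both of its changes are therefore bounds, and its place does not show equal capture. Mid1 and Ccdc144b were detected only without peroxide.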

How the data were processed

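RNA of 16 Illumina MouseRef-8 bead arrays of Neuro 2a cells was compared, 4 arrays in each group. Probe intensities were deposited non-normalized, with GenomeStudio 2010.2 named in the submitters' processing notes, and each probe's detection p-value was deposited beside them. A value table of the authors' processed intensities, 28.2% of them below 0, served as an alternative with values floored at 1. Intensities were corrected here by normexp with an offset of 16, the negative controls being inferred from the detection column. Quantile normalization and log2 followed (limma 3.58.1, R 4.3.3). A probe was kept if some group had it below a detection p of 0.01 on each of its 4 arrays, which left 10794 of 25697, and the brightest probe stood for each gene. Of all probes 23978 had 1 gene symbol and 1719 had none or several. Group means over all 16 arrays were fitted with limma's lmFit and eBayes, and p-values were adjusted by Benjamini-Hochberg over 8072 features at 0.05, with 12 residual and 5.37 prior degrees of freedom. In simulated data for the peroxide comparison over 8072 features, 69% of changes of 0.5 and 100% of changes of 1 log2 were recovered, with 5 false calls. The simulation changed 100 features at each size and drew noise independently for each array. The arrays here deviate together, so these rates may not hold for them. The number of arrays limits precision: the median standard error was 0.12.

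A gene detected on 0 arrays of 1 group has a bound only: the brighter mean was set against a floor, taken on each array as the lowest detected signal or the probe's own, whichever was higher. Same-numbered Ox-ARP and Ox-total arrays deviated together, with correlations of 0.711, 0.145, 0.334 and 0.516, which meets the rule for pairing set here. Arrays of different numbers on the same chip had -0.366 to 0.349. Ox-ARP replicate 2 correlated more with Ox-total replicate 4, on the other chip, at 0.313 than with its own number. The main fit has no pairing term, and the fit with the number as a block is an alternative, printed beside a result where it changes a call or moves a count by over 1.5 times. The members and gene lists were chosen with earlier results of these data known, and patterns of 5 lists were corrected after values were seen, to drop genes that are no members. Named genes were the 15 largest called rises and falls without overlap, from each list the 4 genes of smallest p, up to 10 genes each for detection in 1 fraction only and for the interaction, and the stress and reference genes. Atp5a1, Hspa5, Htt, Mrpl9, Mrps6, Slc38a2, Slc7a11, Uqcrc2 and Vcp, and genes named for opposite probes, were chosen after their values were seen. Genomic spans came from RefSeq annotation of GRCm38.p6. Coding length was not used here. Alternatives covered scaling, background offset, filter, probe choice, blocks, array weights and left-out arrays.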

Additional observations from a re-analysis of the deposited data

Results flagged for a closer look

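Of 326 groups of 4 arrays that were examined, 20 held 1 array far from its 3 fellows by Dixon's test, and chance alone flags about 5%. Each value is given on the log2 scale beside the range of the other arrays of its group. In Ox-ARP replicate 1, Aen stood at 5.95 above 5.85 to 5.86, Ehd1 at 7.93 above 7.31 to 7.34, Lrrn4cl at 6.62 above 6.29 to 6.34, Psme2 at 8.01 above 7.68 to 7.70 and Vamp8 at 6.61 above 6.001 to 6.05. In Ox-ARP replicate 2, Atp5o stood at 9.07 below 9.42 to 9.45, Gpx1 at 10.55 below 10.99 to 10.998, Mars1 at 11.80 below 11.94 to 11.97 and Ndufa5 at 10.91 below 11.16 to 11.20. In Ox-ARP replicate 3, Lypla1 stood at 7.82 above 7.44 to 7.49. In Ox-ARP replicate 4, Hspa5 stood at 8.27 above 7.57 to 7.63. In Ox-total replicate 1, Cyp20a1 stood at 6.19 below 6.81 to 6.91, Ost4 at 11.58 above 11.42 to 11.43, Sec22a at 7.37 above 7.01 to 7.06 and Vcp at 12.47 above 12.19 to 12.23. In Ox-total replicate 2, Dynlrb1 stood at 11.55 above 11.44 to 11.45 and H4c6 at 7.79 below 7.96 to 7.98. In Ox-total replicate 4, Plp2 stood at 8.42 below 8.70 to 8.72, Psmb10 at 10.26 below 10.42 to 10.45 and Uqcr11 at 11.91 below 12.08 to 12.10. 

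The change on capture differed with peroxide, by the test of the difference in limma, in these named genes. Lower with peroxide than without were Rnu6 -0.78 ± 0.16 (adjusted p = 0.021), Prf1 -1.35 ± 0.16 (adjusted p = 0.00047) and Rab1a -1.77 ± 0.19 (adjusted p = 0.00022). The same direction was seen in Lypla1 -1.29 ± 0.18 (adjusted p = 0.0016), Sec22a -0.95 ± 0.16 (adjusted p = 0.0096), Mex3c -0.83 ± 0.14 (adjusted p = 0.0096), Atp5o -0.61 ± 0.14 (adjusted p = 0.031) and Psmd5 -1.03 ± 0.19 (adjusted p = 0.012). So it was in Mcm7 -0.97 ± 0.19 (adjusted p = 0.018), Slc38a2 -0.86 ± 0.16 (adjusted p = 0.012), Atxn3 -0.51 ± 0.12 (adjusted p = 0.036) and Fos -0.73 ± 0.18 (adjusted p = 0.048). Higher with peroxide were Cuedc1 0.90 ± 0.13 (adjusted p = 0.0024) and Metrn 1.03 ± 0.16 (adjusted p = 0.0093). Bco1 was flagged too, but it was detected on 0 Basal-ARP arrays, so its difference, 1.10 as measured, is a description. The causes of these differences were not tested.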

How the results depend on the processing

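With peroxide, calls numbered 1168 (509 higher, 659 lower) on chip 1 alone, 550 (217 and 333) on chip 2 alone and 505 (158 and 347) without normalization between arrays, against 2092 (1091 and 1001). Leaving out 1 array gave 1677 to 1961 calls, 842 to 986 higher and 818 to 975 lower. The other alternatives lay within 1.5 times. Features whose change differed with peroxide numbered 684 with the replicate block, 528 with chip as a block, 481 with array weights (added after seeing the data), 218 with the authors' values, 5 without normalization, 3 on chip 1, 0 on chip 2 (883 at an unadjusted limma p of 0.05), and 56 to 170 on leaving out 1 array, against 126. Single chips hold fewer arrays, and the other causes were not tested. Eif3b was -0.12 as the mean of its probes, which oppose each other. All 148 named called genes kept their sign on both chips. They were chosen from these same arrays, many for groups without overlap, so this outcome was largely fixed in advance. Calls were lost in 50 without normalization, 41 on chip 2, 17 on chip 1 and 13 with median scaling. Those of Sdhc, Uqcrc2, H3c13, Cct3, Eif3l, Tdg, Tdp1, Mcm7, Sod2, Slc7a11, Pdia4 and Dbh were lost on each chip alone. The replicate block made Gapdh and Tbp pass and changed no other named call; the group counts it moves stand beside each group. Of 1562 list medians under alternatives 203 moved by more than the spread. Low signal limits genes near detection, for which only bounds are given.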
